A study of Mus musculus with 2 samples.

Results

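Aminoacyl-tRNA synthetases load each amino acid onto its own transfer RNA, the step that precedes protein synthesis on the ribosome. The 36 members described here are 20 genes for cytosolic enzymes or their subunits and 16 genes for mitochondrial enzymes, of 54680 gene models in the deposited table. They were chosen by gene symbol from a list of synthetase genes, which was drawn up with earlier results of these libraries known. Mars1 stands in the table under the symbol Mars, and its gene ID and protein match are those of methionyl-tRNA synthetase. All 36 symbols were found once. Of these, 35 reached 1 FPKM (fragments per kilobase of gene model, scaled by depth) in at least 1 library, and Nars2 did not.

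The cells were CT26, a mouse colon cancer line, grown in RPMI 1640 with serum and collected after 6 days. Cells of 1 group (shSetdb1) had received lentivirus with a short hairpin RNA that targets Setdb1, the gene of an enzyme that methylates histone H3 at lysine 9. Cells of the other group (shCtrl, listed as wild type) had received lentivirus with the empty knockdown vector, and the labels name no non-targeting hairpin. The knockdown cells are labelled as differentiated. Each group had 1 library, so no difference below has a replicate check or a p-value, and each describes these 2 libraries. Fewer cells of a kind and less RNA per cell cannot be told apart in such libraries.

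Whole reads could be recovered from the deposited values, 18421604 in shCtrl and 19045830 in shSetdb1. Setdb1 was at 10.4 FPKM in shCtrl and 2.47 FPKM in shSetdb1, a read ratio of 0.229 with an interval of 0.202 to 0.259. Here and below, intervals are 95% exact binomial (Clopper-Pearson) intervals of the ratio of reads, knockdown over control, each relative to its library's total. These intervals hold counting error alone, with no variation between libraries. Because PCR copies of a molecule are not independent, they can be too narrow even for that. Of 8 epithelial markers, Krt18, Krt19 and Krt20 reached 1 FPKM, while Epcam and Cdh1, which define epithelial cells, had no reads in either library. Summed epithelial markers were at 43.2 and 128 FPKM in the control and knockdown libraries, and 6 mesenchymal markers at 937 and 969.5 FPKM. The latter sum was mostly Vim (752 and 835 FPKM), and its members went both ways. Col1a2 (140 and 94.1 FPKM) and Col1a1 (32.1 and 24.0) were lower in the knockdown library. Pdgfrb (13.5 and 14.6) and Pdgfra (0.501 and 1.77) were higher, and Thy1 had no reads. Summed mesenchymal reads were 104701 and 100865. Of 5 leukocyte markers, Cd68 was at 10.4 and 100.2 FPKM, Ptprc had 0 and 4 reads, and the remaining 3, Cd3e and Itgam among them, had none. The 3 endothelial markers had no reads. The part of these markers in the results below was not tested.

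As background, cells keep a pair of synthetase sets, both encoded in the nucleus. The cytosolic set serves the ribosomes that translate nuclear genes, and 8 of its enzymes sit together in the multisynthetase complex. The mitochondrial set, mostly named with a final 2, serves the few proteins encoded by mitochondrial DNA. ATF4 is a transcription factor of the integrated stress response, which is switched on when amino acids are short or unfolded proteins build up. It raises many genes of amino acid uptake and synthesis together with a number of cytosolic synthetases, often through a composite C/EBP-ATF response element. Of the 20 cytosolic genes, 12 were placed here in a list of enzymes widely described as ATF4 targets, and the other 8 were kept apart.

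That element has the core TGATGNAA, which reads TTNCATCA on the opposite strand. Promoter windows of 300 bases, 250 before and 50 after the annotated start (RefSeq, GRCm38.p6), were on hand for 27 members. The core was found on either strand in 5 of the 13 cytosolic windows and in 0 of the 14 mitochondrial windows. Of all 27025 genes with a window in the RefSeq table, 1219 (4.51%) held it in at least 1 window. The 30 bases around the match nearest to the start are shown for each of these 5 genes because they set them apart by sequence, with capitals marking the core. All are written 5′ to 3′ on the strand of the gene.
Aars: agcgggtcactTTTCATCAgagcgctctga
Gars: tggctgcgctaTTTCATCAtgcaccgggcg
Iars: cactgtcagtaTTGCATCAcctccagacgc
Tars: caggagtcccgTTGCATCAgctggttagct
Yars: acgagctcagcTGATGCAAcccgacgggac
The Aars stretch is chr8:111033840-111033869, plus strand, with the core beginning at base 10 after the start. In Gars the stretch is chr6:55037960-55037989, plus strand, with the core at -30, counted back from the start. The Iars stretch is chr13:49682126-49682155, plus strand, with the core at base 8. For Tars it is chr15:11399655-11399684, minus strand, with the core at -15. The Yars stretch, chr4:129189895-129189924 on the plus strand, has the core at base 4 and is the 1 of these genes in which it reads forward. A match is a description of letters and not a shown site of binding.

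Cytosolic synthetases were lower in shSetdb1 as a set, chiefly in the 12 listed ATF4 targets, and mitochondrial synthetases differed by less. On the log2 scale of (FPKM + 1), knockdown over control, the 20 cytosolic genes had a median of -0.92, and 17 of them were below 0 (18 under upper-quartile scaling, where Kars crossed 0). The median of all 10671 genes at 1 FPKM or more was -0.00039, and 50.0% of them were below 0. At least 2-fold lower on this scale were 10 of the 20 cytosolic genes, against 4.85% of all genes. None of the 20 was 2-fold higher, against 6.81% of all genes. At 1.5-fold, 13 were lower and 0 higher, against 14.3% and 16.9% of all genes. Adding 1 shrinks the ratios of genes with low levels.

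The 16 mitochondrial genes had lower levels and smaller differences. For the 15 at 1 FPKM the median log2 ratio was -0.14, with 10 below 0, 4 above 0 and Sars2 at 0. Tars2 was the 1 member at least 2-fold lower and 3 were at least 1.5-fold lower, against 4.85% and 14.3% of all genes. These counts were thus close to the shares of all genes. At the same thresholds 0 were higher, against 6.81% and 16.9% of all genes. By read ratio alone, 2 of the 15 were at 0.5 or less, against 1024 of all 10671 genes. The cytosolic median minus the mitochondrial one was -0.79. With Nars2 counted the mitochondrial median was -0.21, and as a mean over the 15 it was -0.25. In means the gap was -0.57, and without members that overlap another gene the gap in medians was -0.62. Taken on reads alone, with no pseudocount, the median log2 read ratios were -0.999 and -0.24, against -0.048 for all 10671 genes. Summed cytosolic reads went from 161513 to 87890, or from 0.877% to 0.461% of each library, a read ratio of 0.526 (0.522 to 0.531). Summed mitochondrial reads went from 14623 to 11501, a read ratio of 0.761 (0.742 to 0.780).

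**Figure D1:**
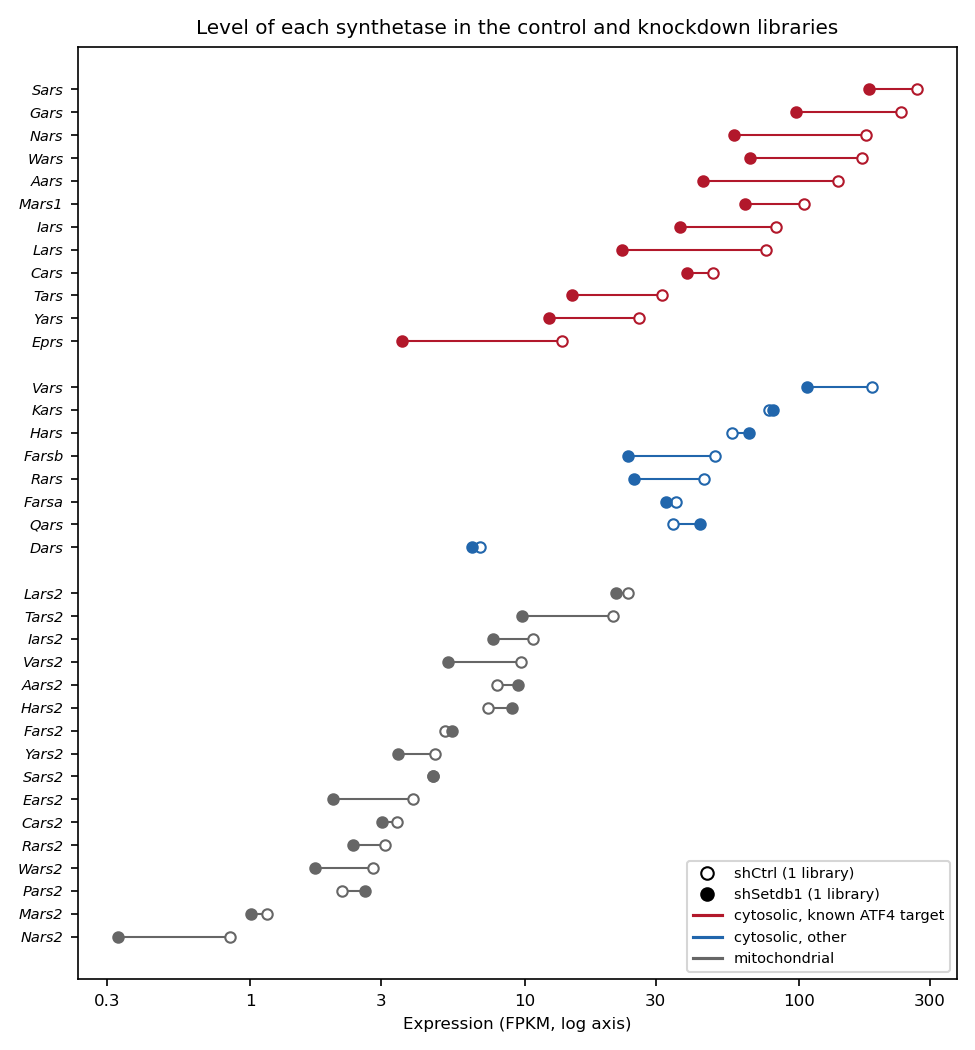
Level of each of the 36 synthetase genes in FPKM on a log axis. Open circles are the 1 control library, filled circles the 1 knockdown library, and the line joins them. Most cytosolic genes have the filled circle to the left, among them Sars at 269 and 179.6 FPKM, Eprs at 13.6 and 3.58 FPKM and, by a short line, Dars at 6.85 and 6.39 FPKM, while Qars, Hars and Kars (Kars by a margin that reverses under upper-quartile scaling) have it to the right.

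The cytosolic genes known as ATF4 targets were the lower part of the set. All 12 were below 0, against 50.0% of all genes, with a median log2 ratio of -1.20. At least 2-fold lower were 9, against 4.85% of all genes. The other 8 cytosolic genes had a median of -0.10, with 5 below 0 and 1 (Farsb) at least 2-fold lower. Summed reads of the 12 gave a read ratio of 0.451 (0.446 to 0.456), and those of the 8 gave 0.748 (0.737 to 0.759). These 8 lay close to the mitochondrial genes. The latter had a median of -0.14 (15 genes at 1 FPKM) and a summed read ratio of 0.761 (all 16). Membership of the 12 rests on general knowledge of ATF4, and was written with earlier results of these libraries known, so the gap is a description.

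Lars had the lowest log2 ratio of the members. It encodes leucyl-tRNA synthetase, which is also described as a leucine sensor for the growth kinase mTORC1. The gene (ENSMUSG00000024493) spans 42202350 to 42262122 of chromosome 18 in GRCm38, minus strand. Its level was 75.8 FPKM (5474 reads) in shCtrl and 22.6 FPKM (1632 reads) in shSetdb1. This gives a log2 ratio of -1.70 with a read ratio of 0.288 (0.273 to 0.305), and 103 of the 10671 genes had a lower log2 ratio.

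Eprs encodes the bifunctional enzyme for glutamate and proline, a member of the same complex. The gene (ENSMUSG00000026615) is on the plus strand of chromosome 1, from 185363044 to 185428360. It had 4620 reads in shCtrl and 1213 in shSetdb1, or 13.6 and 3.58 FPKM. Its log2 ratio was -1.68, and its read ratio of 0.254 (0.238 to 0.271) was the lowest of the 36. Its deposited model is 18102 bases long, the longest of the cytosolic set, where the shortest is 1987 bases, so its FPKM stands low beside its reads.

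Aars, for alanyl-tRNA synthetase, lies on the plus strand of chromosome 8, from 111033144 to 111057664 (ENSMUSG00000031960). It holds the ATF4 core in the stretch shown above. Its level was 139 FPKM (24125 reads) in shCtrl and 44.4 FPKM (7726 reads) in shSetdb1. Its log2 ratio was -1.62, with a read ratio of 0.310 (0.302 to 0.318).

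Nars, for asparaginyl-tRNA synthetase, spans 64499665 to 64516557 of chromosome 18, minus strand (ENSMUSG00000024587). It went from 175 FPKM (8634 reads) to 57.8 FPKM (2849 reads), a log2 ratio of -1.58. Its read ratio was 0.319 (0.306 to 0.333), which overlaps the interval of Aars. Lars, Eprs, Aars and Nars thus each stood at 26.3% to 33.0% of their control level in FPKM.

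Wars, for tryptophanyl-tRNA synthetase, is also known as a gene that interferon gamma raises. It spans 108860030 to 108894174 of chromosome 12, minus strand (ENSMUSG00000021266). Its level was 169 FPKM (10920 reads) in shCtrl and 66.0 FPKM (4259 reads) in shSetdb1, for a log2 ratio of -1.35 with a read ratio of 0.377 (0.364 to 0.391). In the same pair of libraries 12 of 12 listed interferon-stimulated genes were above 0, against 5293 of all 10671 genes. At least 2-fold higher were 10, against 6.81% of all genes, with Irf7 the highest at a log2 ratio of 4.91. Wars lay on the opposite side of 0 from those 12. Wdr25 overlaps it on the other strand, with 317 and 145 reads. Here and below, reads given for an overlapping gene are those of the whole gene. Reads in the shared stretch were not counted apart.

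Gars makes glycyl-tRNA synthetase for both the cytosol and the mitochondrion from 1 gene on the plus strand of chromosome 6, from 55038007 to 55079500 (ENSMUSG00000029777). It was at 234 FPKM (13673 reads) in shCtrl and 97.5 FPKM (5698 reads) in shSetdb1. Its log2 ratio was -1.25, with a read ratio of 0.403 (0.391 to 0.416). Kars, for lysyl-tRNA synthetase, likewise serves both compartments, and its values differed little. Kars was at 77.5 FPKM (6483 reads) and 80.2 FPKM (6705 reads), with reads in nearly equal proportion (interval of the ratio 0.967 to 1.04). Of the pair that serves both compartments, Gars was thus lower and Kars close to its control level.

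Iars, Tars and Yars, the remaining genes with the core in their window, were close to each other. Iars, for isoleucine, went from 82.1 to 36.7 FPKM, for a log2 ratio of -1.14 with a read ratio of 0.433 (0.416 to 0.450). Tars, for threonine, went from 31.7 to 14.8 FPKM, for a log2 ratio of -1.05 with a read ratio of 0.452 (0.426 to 0.480). Yars, for tyrosine, went from 26.1 to 12.3 FPKM, for a log2 ratio of -1.03 with a read ratio of 0.455 (0.427 to 0.486). The intervals of these 3 overlap one another. C77080 overlaps Yars on the opposite strand and had 3933 and 4977 reads, more than Yars itself with 2902 and 1366.

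Set by promoter letters, the 5 cytosolic genes with the core were all at least 2-fold lower, with a median log2 ratio of -1.14. Of the 8 cytosolic genes whose window lacks it, 2 (Eprs and Farsb) were at least 2-fold lower, and the median was -0.35. Over all genes 4.85% were at least 2-fold lower. All 5 genes with the core are among the 12 listed ATF4 targets, of which 8 had a window. The 5 other cytosolic genes with a window held it in 0 cases. This split is therefore not independent of that list. The absence of a match says only that these letters are not in that window. Cars, Hars, Lars, Nars, Rars, Vars, Wars, Hars2 and Pars2 were not matched to a window.

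The other 3 genes listed as ATF4 targets were lower by less. Mars1, for methionine, was at 105 FPKM (6701 reads) and 63.7 FPKM (4085 reads), a read ratio of 0.590 (0.567 to 0.613). It overlaps Ddit3 on the opposite strand, itself an ATF4 target, with 3039 and 1446 reads. Sars, for serine, had the highest level of the 36, at 269 FPKM (25895 reads) in shCtrl and 179.6 FPKM (17294 reads) in shSetdb1, with a read ratio of 0.646 (0.634 to 0.659). Cars, for cysteine, was at 48.4 and 39.0 FPKM, with a read ratio of 0.779 (0.749 to 0.809). Each of these 3 had an interval wholly below 1, as did 40.6% of all 10671 genes at 1 FPKM or more, so that alone does not set a gene apart.

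**Figure D2:**
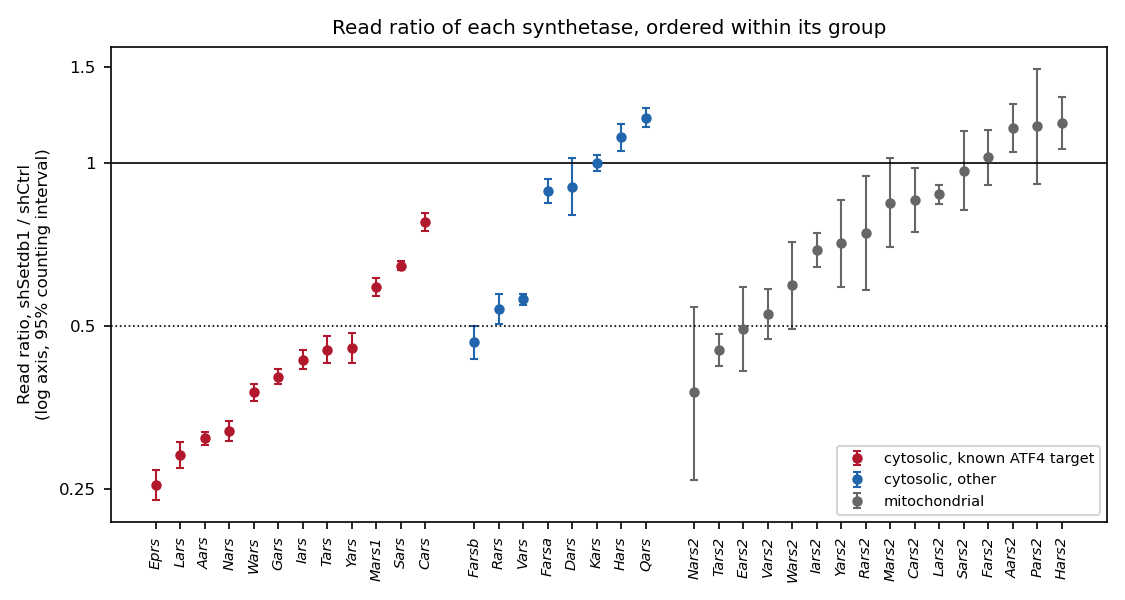
Read ratio, knockdown over control, of each synthetase gene on a log axis, with 95% exact counting intervals from 1 library a group. The solid line marks a ratio of 1 and the dotted line 0.5. The cytosolic genes known as ATF4 targets run from 0.254 (Eprs) to 0.779 (Cars), the other cytosolic genes from 0.466 (Farsb) to 1.21 (Qars), and mitochondrial genes from 0.378 (Nars2) to 1.18 (Hars2).

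Among the 8 cytosolic genes outside that list, values split into 3 that were lower and 5 near or above their control level. Farsb encodes the beta subunit of phenylalanyl-tRNA synthetase, an enzyme built from alpha and beta subunits in equal number. It was at 49.5 FPKM (2431 reads) in shCtrl and 23.9 FPKM (1171 reads) in shSetdb1, for a log2 ratio of -1.02 with a read ratio of 0.466 (0.434 to 0.500). Farsa, the alpha subunit, was at 35.6 FPKM (3027 reads) and 32.6 FPKM (2775 reads), for a log2 ratio of -0.12 with a read ratio of 0.887 (0.842 to 0.934). The intervals of the 2 subunits do not overlap, and their order by level per length was opposite in the 2 libraries.

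Vars, for valine, and Rars, for arginine, were lower without reaching 2-fold. Vars was at 185 FPKM (19391 reads) and 107 FPKM (11232 reads), with a read ratio of 0.560 (0.547 to 0.573). Rars was at 44.9 FPKM (2715 reads) and 24.9 FPKM (1508 reads), with a read ratio of 0.537 (0.504 to 0.572). Both were at least 1.5-fold lower on the log2 scale, at -0.78 and -0.82.

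Qars, for glutamine, and Hars, for histidine, were the 2 cytosolic genes with intervals wholly above 1, where 35.2% of all 10671 genes lay. Qars was at 34.6 FPKM (4261 reads) in shCtrl and 43.4 FPKM (5337 reads) in shSetdb1, a read ratio of 1.21 (1.16 to 1.26). Hars was at 57.0 FPKM (2121 reads) and 65.7 FPKM (2444 reads), a read ratio of 1.11 (1.05 to 1.18). Dars, for aspartate, had the fewest reads of the cytosolic set, 559 and 522, with a read ratio of 0.903 (0.800 to 1.02). Counting error does not separate Dars or Kars from a ratio of 1.

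Genes of the multisynthetase complex differed among themselves. Its 8 enzymes ranged from Lars at -1.70 to Qars at 0.32, with 6 below 0 and 3 (Eprs, Iars and Lars) at least 2-fold lower, and their median was -0.76. The 12 cytosolic genes outside the complex had a median of -1.03, with 7 at least 2-fold lower. Over all genes, 50.0% were below 0 and 4.85% at least 2-fold lower. Aimp1, Aimp2 and Eef1e1, the scaffold proteins of the complex, were put in 1 list with the threonyl enzyme copy Tarsl2 and with Xpot, the exporter of transfer RNA from the nucleus. Of these 5, 4 reached 1 FPKM, with a median of -0.46 and 1 at least 2-fold lower. Xpot was the lowest, at 45.6 FPKM (5148 reads) and 12.9 FPKM (1459 reads), a log2 ratio of -1.74, and Aimp2 the highest at 0.09.

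Cytosolic synthetases fall into unrelated structural classes, I and II, by the fold of the catalytic domain, and Eprs joins both. The classes lay close together. The 9 class I genes had a median log2 ratio of -0.82 with 4 at least 2-fold lower, and the 10 class II genes had -0.80 with 5. Among all genes the 2-fold lower share was 4.85%.

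Each mitochondrial gene was set beside the cytosolic gene for the same amino acid, in 17 pairs. Eprs enters with both Ears2 and Pars2, and Fars2 is paired with both Farsa and Farsb, so the pairs are not independent. On the log2 scale of (FPKM + 1), the cytosolic ratio was the lower one in 17 of 17 pairs, or 16 of 16 without Nars2, with a median difference of -0.67 over the 17. On read ratios, where no pseudocount shrinks the low genes, it was the lower one in 15 pairs, and Tars2 and Vars2 were below Tars and Vars. The intervals of the read ratios did not overlap in 11 pairs, with the cytosolic gene lower in each, and overlapped in 6, that of Nars2 among them.

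The widest gaps were those of proline, alanine and leucine. Pars2 was at 2.16 FPKM (125 reads) and 2.61 FPKM (151 reads), a log2 ratio of 0.19 against -1.68 for Eprs. Aars2 was at 7.89 FPKM (704 reads) and 9.44 FPKM (843 reads), a log2 ratio of 0.23 against -1.62 for Aars. Lars2 was at 23.7 FPKM (4922 reads) and 21.4 FPKM (4454 reads), a log2 ratio of -0.14 against -1.70 for Lars. Per length, Lars stood at 3.20 times the level of Lars2 in shCtrl and at 1.05 times in shSetdb1, and the Aars level was 17.6 and 4.70 times that of Aars2.

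The narrowest gaps were those of valine, threonine and histidine. Tars2 was the lowest mitochondrial gene on the log2 scale, at 21.0 FPKM (2725 reads) and 9.79 FPKM (1271 reads). Its log2 ratio of -1.03 stood beside -1.05 for Tars, and its read ratio was 0.451 (0.422 to 0.482). Vars2 was at 9.69 FPKM (991 reads) and 5.27 FPKM (539 reads), a log2 ratio of -0.77 beside -0.78 for Vars. Hars2 was at 7.32 FPKM (587 reads) and 8.97 FPKM (719 reads), a log2 ratio of 0.26 beside 0.20 for Hars. Hars and Hars2 lie head to head on chromosome 18 and their models overlap on opposite strands, so some reads could belong to either.

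**Figure D3:**
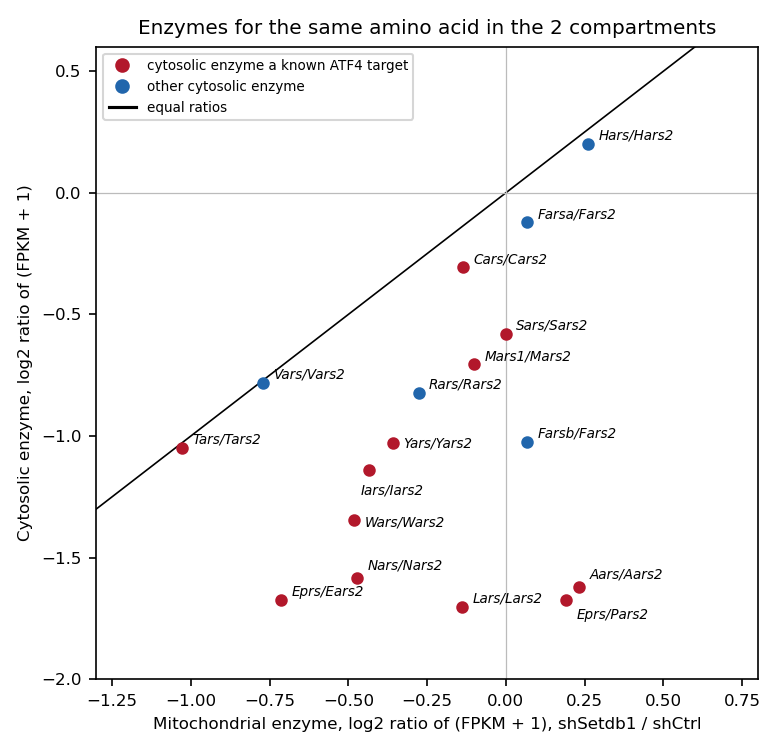
Log2 ratio of (FPKM + 1), knockdown over control, of the cytosolic enzyme (vertical) against the mitochondrial enzyme (horizontal) for the same amino acid, 1 point a pair. The line marks equal ratios, and all 17 points lie below it on this scale (15 by read ratio), from Vars and Vars2 almost on it to Eprs and Pars2 farthest away.

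The remaining mitochondrial genes had few reads and wider intervals, 9 of the 16 with fewer than 500 reads in shCtrl. Ears2, for glutamate, was at 3.92 FPKM (378 reads) in shCtrl and had 193 reads in shSetdb1, a read ratio of 0.494 (0.413 to 0.589). Ubfd1 overlaps it on the opposite strand with 881 and 943 reads, more than Ears2 itself. Wars2, for tryptophan, had 311 and 191 reads, a read ratio of 0.594 (0.494 to 0.714). Nars2, for asparagine, was at 0.843 FPKM (110 reads) and 0.330 FPKM (43 reads), a read ratio of 0.378 (0.259 to 0.542). Nars2 thus had the lowest read ratio of the mitochondrial set with the widest relative interval.

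Iars2, Yars2 and Rars2 were lower by less. Iars2, for isoleucine, had 1787 and 1278 reads, a read ratio of 0.692 (0.643 to 0.744). Rab3gap2 overlaps it on the opposite strand with 2022 and 2006 reads. Yars2, for tyrosine, had 278 and 204 reads, a ratio of 0.710 (0.590 to 0.853). Rars2, for arginine, had 160 and 123 reads, a ratio of 0.744 (0.583 to 0.946). Cars2, for cysteine, stood nearer to 1 at 0.854 (0.746 to 0.978), and is overlapped on the opposite strand by Naxd with 949 and 1187 reads. Lyrm4 overlaps Fars2 in the same way, with 252 and 132 reads, and Sgpp2 overlaps Farsb with 29 and 4. Strand setting in the counting is not given in the sources used here, so how reads in a shared stretch were counted is not known.

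Of the 15 mitochondrial genes at 1 FPKM, intervals lay wholly below 1 for 9 and above 1 for 2 (Aars2 and Hars2), and they held 1 for Fars2, Mars2, Pars2 and Sars2. Of the 20 cytosolic genes, 16 lay below 1, 2 above, and 2 held it. Over all 10671 genes the shares were 40.6% below and 35.2% above, and an interval narrows with the reads of its gene.

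Qars has no mitochondrial partner among the members, since mitochondria load glutamine by an indirect route through the GatCAB amidotransferase. The amidotransferase genes Qrsl1, Gatb and Gatc, named for that role, had log2 ratios of -0.17, -0.34 and -0.83. All 3 belong to a list of 18 genes of mitochondrial translation and tRNA maturation. Of its 17 members at 1 FPKM, 0 were at least 2-fold lower or higher, and the median was -0.17. Over all genes the shares were 4.85% lower and 6.81% higher, and 17 genes are few for such shares. Elac2, which trims the 3′ end of transfer RNA precursors, was lowest at -0.89, and Gfm2, a factor of ribosome recycling, highest at 0.65.

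Atf4 itself and most of its listed targets other than synthetases were also lower in shSetdb1. Atf4 was at 479 FPKM (21170 reads) in shCtrl and 178 FPKM (7858 reads) in shSetdb1, for a log2 ratio of -1.42 with a read ratio of 0.359 (0.350 to 0.368). Of 29 genes in that list, Atf4 included, 27 reached 1 FPKM, with a median of -1.38. Below 0 were 25 of them, against 50.0% of all genes. At least 2-fold lower were 19 and 2-fold higher 1, against 4.85% and 6.81% of all genes. Trib3, a pseudokinase that feeds back on ATF4, was lowest at 362 and 41.6 FPKM (log2 ratio -3.09). Ddit4, an inhibitor of mTORC1 that low oxygen also raises, was the highest, at 45.3 and 117 FPKM (log2 ratio 1.35). The core TGATGNAA stood in the windows of 9 of the 25 list members that could be matched, against 4.51% of all genes with a window.

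Cytosolic elongation factors, which carry loaded transfer RNA to the ribosome and move it along, were lower by less. All 6 listed were below 0, against 50.0% of all genes, from Eef2 at -0.49 to Eef1d at -0.17, with a median of -0.40. At 1.5-fold, 0 were lower, against 14.3% of all genes. The median of the cytosolic synthetases, at -0.92, lay between those of the elongation factors and of Atf4 with its targets. Within that set the 12 listed ATF4 targets had -1.20, and the other 8 had -0.10, above the elongation factors.

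**Figure D4:**
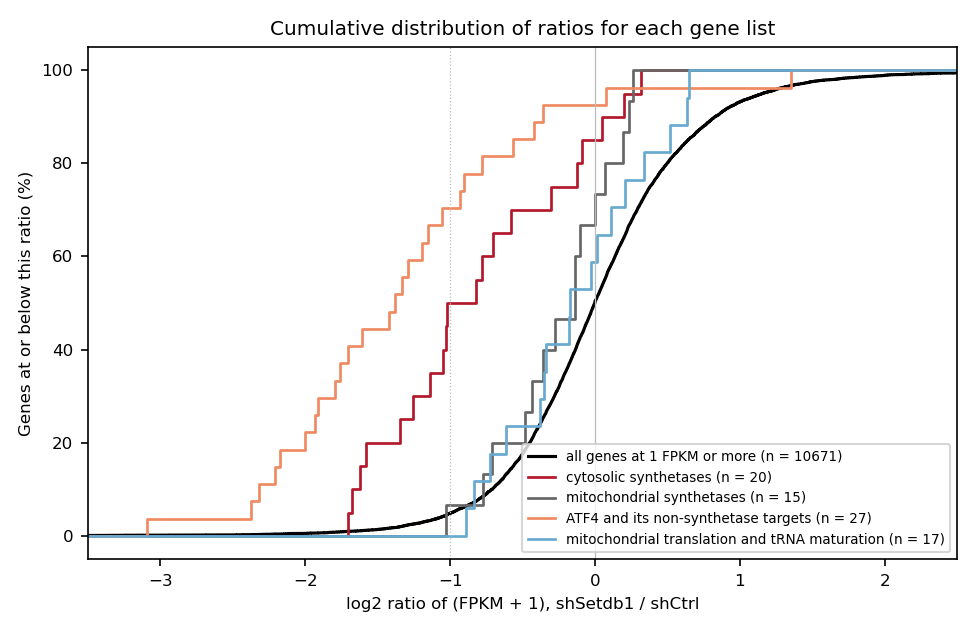
Cumulative share of genes (percent) at or below each log2 ratio of (FPKM + 1), knockdown over control, for all 10671 genes at 1 FPKM or more and for 4 lists. The curve of cytosolic synthetases crosses its median at -0.92, between that of Atf4 and its other targets (-1.38) and those of mitochondrial synthetases (-0.14) and mitochondrial translation genes (-0.17), with all genes near 0.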

How the data were processed

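RNA sequencing libraries of CT26 cells were compared, 1 from each of the 2 groups, matched to columns by the library names in the labels. The authors deposited FPKM values with gene positions and model lengths in base pairs, per the file headers. HISAT2, featureCounts 1.5.0-p3 and GRCm38 are named per the submitters' processing notes. Strand setting and annotation are not given in the sources used here. FPKM times length gave whole reads (within 0.01) for 100% of values above 0, at a depth of 18731117 in both columns, so main ratios carry the 1.03 ratio of totals. In GENCODE M21, 33 of 36 members have the same start and end.

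Log2 ratios used a pseudocount of 1, and a gene entered the medians and fold counts when either library reached 1 FPKM. Nars2, below that, stays in the pairs, the promoter windows, the summed reads and its own read ratio. Motif cores were searched on both strands of RefSeq windows, overlaps between matches allowed. Members and lists were chosen with earlier results of these data known. The text names all 36 members, Setdb1, Atf4, and the highest and lowest gene of each companion list, except 1 that is not reported here. Qrsl1, Gatb, Gatc, Ddit3 and overlapping genes were added for their place beside a member. Alternatives were a pseudocount of 0.1, 3 scalings, 2 filters, means, a 1.5-fold threshold, and lists without Gars and Kars or without overlapping members. Calculations were tested on simulated data. Software was matplotlib 3.10.9, scipy 1.17.1, pandas 2.3.3, numpy 2.4.6 and Python 3.11.15.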

Additional observations from a re-analysis of the deposited data

How the results depend on the processing

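There were 47 alternative values of the Setdb1 ratio, the list medians, their difference and the counts. Of these, 43 moved by less than the counting error or, for counts, by less than 1.5 times. Some of the 43 could not move. Every cytosolic gene passes at either filter setting, and the mitochondrial list holds neither Gars nor Kars. Counting error of a list median was taken as the medians of its members' interval ends. For the gap the opposite ends were combined, a wide range of -0.99 to -0.56. With a pseudocount of 0.1 the log2 ratio of Setdb1 was -2.04. The cytosolic value was -0.81 as a mean in place of a median, the mitochondrial one -0.25, and the gap -0.57. Without members that overlap another gene with at least 20 reads, chosen after seeing the data, these were -0.82, -0.21 and -0.62. With no filter the mitochondrial median was -0.21 and the gap -0.72. At 1.5-fold, 3 mitochondrial genes passed in place of 1. Of 144 alternative member values, 130 kept within counting error, 13 moved, and Kars reversed, to -0.0036 under upper-quartile scaling. The cause was not tested. Scaling brought the median of genes at 1 FPKM in both libraries to -0.0464 at the lowest. No paired analysis was possible because there was 1 library a group, so none could be left out either. Depth limits the mitochondrial set, with 9 of 16 genes under 500 reads.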

Other observations

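The core TGATGNAA was looked up for 7646 genes at 1 FPKM or more that are not synthetases. Of the 192 genes with the core in a window, 22 (11.5%) were at least 2-fold lower in shSetdb1, and the median log2 ratio was -0.11. Of the 7454 genes without it, 279 (3.74%) were at least 2-fold lower, and the median was 0.00037. The listed ATF4 targets other than synthetases were not left out. Of that list 9 hold the core, Trib3 among them, so these shares are not independent of the list described above.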
